A study of Mus musculus with 6 samples.

Results

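The transcripts of 31 mouse genes of cholesterol synthesis, uptake, storage and efflux were followed in uterine RNA collected on day 4 of pregnancy, at 1600 h. The genes were taken by name from a list of sterol genes, out of 56748 genes in the tables. That list was chosen with earlier results of these data known. All 31 had a row in every table and passed the filter on low counts. By role they comprised 18 enzymes of synthesis, 4 regulators of that pathway, 4 proteins of uptake and transport, 1 storage enzyme, 2 oxysterol receptors and 2 efflux transporters.

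The study compared 3 control libraries, labelled wild type, with 3 libraries from mice carrying a conditional knockout (cKO) of Zip10, the gene also named Slc39a10. ZIP10 is a zinc importer of the plasma membrane. The series title places the question in endometrial progesterone responsiveness, and its design text calls the deletion specific to the uterus and the tissue endometrium, whereas each library is labelled uterus. The labels used here name no Cre driver, deleted exons, strain or age, and nothing says that each library came from a separate animal. P-values therefore measure only the spread between these libraries, which may be technical.

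Cells make cholesterol from acetyl-CoA through the mevalonate pathway, squalene and lanosterol. When membrane sterol is low, SCAP escorts the transcription factor SREBP2 (gene Srebf2) out of the endoplasmic reticulum, and SREBP2 switches on most synthesis enzymes together. INSIG1 holds SCAP back when sterol is plentiful. When oxysterols accumulate, the liver X receptors LXRβ (Nr1h2) and LXRα (Nr1h3) switch on the efflux transporters ABCA1 and ABCG1, so synthesis and efflux usually move in opposite directions. In the uterus cholesterol is a membrane component of proliferating and decidualizing cells, and the ovary uses it to make the progesterone that prepares the uterus for implantation.

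Sequencing depth lay between 19643069 and 22809574 estimated counts per library, and each member had between 114 and 5215 counts in a library. Levels are given as CPM, counts per 1000000 counts of the library after scaling by the trimmed mean of M values (TMM), with control 1, 2 and 3 and then cKO 1, 2 and 3 in that order. Slc39a10 itself stood at 54.6, 70.4 and 66.2 CPM in the controls and at 39.5, 72.5 and 79.8 CPM in the cKO libraries. Its mean was 63.9 ± 21.4 CPM (SD, n = 3) in the cKO group, and the groups overlapped (exact two-sided permutation test, p = 1, smallest possible p 0.1). The whole-gene count does not check the genotype labels, because it can include reads outside the deleted exons. The library cKO 1 stood apart on the first axis of a multidimensional scaling plot, at -1.58 against -0.02 to 0.77 for the other libraries, and had 3.43% mitochondrial counts against 4.50% to 4.84%. Summed stromal markers (led by Col3a1) ranged from 8953 to 11950 CPM in the controls and from 13030 to 15120 CPM in the cKO libraries. For smooth muscle (led by Acta2) the ranges were 6110 to 11280 and 10570 to 14730 CPM, and for epithelium (led by Cldn3) 867 to 1334 and 706 to 1095 CPM. Endothelial markers (led by Pecam1) summed to 662 to 812 and 625 to 739 CPM, and lymphocyte markers (led by Prf1) to 15.8 to 26.7 and 28.3 to 34.6 CPM. A large part of the lymphocyte sum was Prf1, at 9.23, 6.18 and 10.15 CPM against 12.3, 17.0 and 12.6 CPM. Of 6 lymphocyte markers tested, 5 had the higher and 1 (Ncr1) the lower mean in cKO. Cd3e and Cd3g were highest in cKO 1, and lower in cKO 2 and cKO 3 than in control 1. Muscle RNA was thus present in tissue that the design text calls endometrium.

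None of the 31 sterol genes differed between cKO and control past the threshold, so no synthesis, regulator, transport, storage or efflux gene was called. With edgeR's quasi-likelihood test and Benjamini-Hochberg adjustment over 16737 genes, adjusted p ranged from 0.747 to 0.999 over the members. The same test called 0 genes in the whole table, a background of 0%. At an unadjusted p below 0.05, 2 of the 31 members were reached, Soat1 and Dhcr7, both with the lower mean in cKO. This was 6.45% of the members, beside 6.46% of all genes tested (4.48% with the higher and 1.98% with the lower mean in cKO). DESeq2 called 37 genes (0.185%) and the edgeR likelihood ratio test 30 genes (0.179%), with 0 members among them in each case. At an unadjusted p below 0.05, DESeq2 reached 3 of 31 members (9.68%), beside 4.15% of 28970 genes. That wider set kept genes of low count, so its share is not a like background for the members. The likelihood ratio test reached 2 members (6.45%), beside 6.57% of the 16737 genes. The log2 fold change of cKO over control was above 0 for 13 members and below 0 for 18, with a median of -0.05 beside 0.00 over all genes.

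Within-group spread was larger in cKO than in control for most of these genes. In 18 of 31 members (58.1%) the lowest of the 6 libraries was cKO 3, beside 19.6% of all genes. Among them were 13 of 18 synthesis genes and 4 of 4 regulators. Of these 13 synthesis genes, 8 were also highest in cKO 1 or cKO 2. Of all 18 synthesis genes, 9 were highest in a control, 6 in cKO 1 and 3 in cKO 2. This pattern was noticed after the data were seen, and it is described here with no test.

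**Figure D1:**
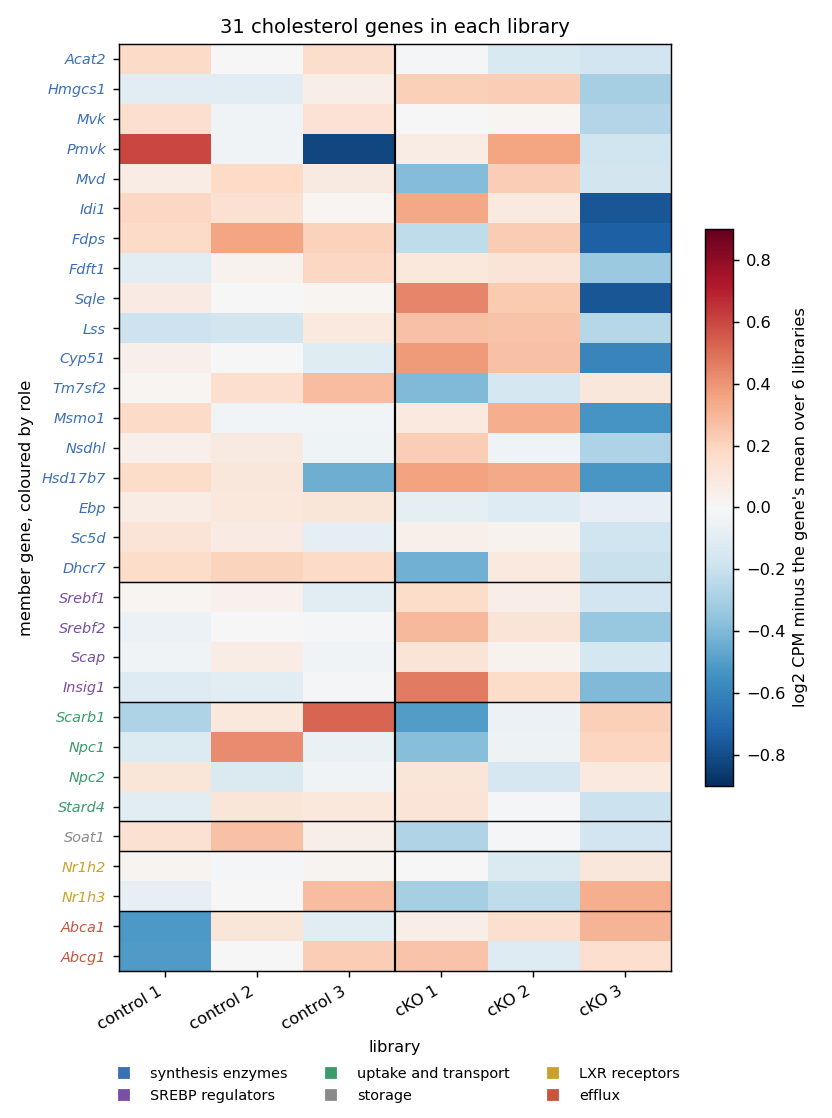
Heat map of log2 CPM of each of the 31 sterol genes (rows, ordered by role) in the 3 control and 3 cKO libraries (columns), relative to that gene's mean over the 6 libraries. The cKO 3 column is the lowest of the 6 for 18 of 31 genes, including 13 of 18 synthesis genes and 4 of 4 regulators.

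The pathway opens with cytosolic acetyl-CoA acetyltransferase and HMG-CoA synthase, encoded by Acat2 and Hmgcs1. Acat2 stood at 26.0, 23.1 and 25.7 CPM in the controls and at 22.8, 20.9 and 20.5 CPM in the cKO libraries. All 3 cKO libraries lay below all 3 controls, with a log2 fold change of -0.22 ± 0.11 (SE). Hmgcs1 stood at 57.4, 57.7 and 63.8 CPM against 71.4, 71.6 and 49.9 CPM. Here cKO 1 and cKO 2 were above every control and cKO 3 below every control, so the group means of 59.6 ± 3.58 and 64.3 ± 12.5 CPM (SD, n = 3 each) were close.

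The next enzymes phosphorylate mevalonate, decarboxylate it and isomerize the isoprene unit. Mvk, mevalonate kinase, ranged from 14.8 to 16.8 CPM in the controls and from 12.6 to 15.3 CPM in cKO. Pmvk, phosphomevalonate kinase, was the synthesis gene with the widest control spread, at 77.7, 50.2 and 29.1 CPM against 53.6, 65.7 and 45.4 CPM. Its cKO values lay inside the control range, and its log2 fold change was 0.07 ± 0.32 (SE). Mvd, mevalonate diphosphate decarboxylase, ranged from 11.4 to 12.3 CPM in the controls and from 8.32 to 12.7 CPM in cKO. Idi1, the isopentenyl diphosphate isomerase, stood at 38.4, 37.1 and 34.1 CPM against 42.9, 36.0 and 19.9 CPM. Its highest cKO library was 2.16 times its lowest, whereas the controls differed by 1.12 times.

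Farnesyl diphosphate synthase (Fdps) makes the last shared isoprenoid, and Fdft1 and Sqle commit it to sterols through squalene. Fdps stood at 28.9, 32.9 and 29.6 CPM in the controls and at 21.9, 30.1 and 15.4 CPM in the cKO libraries. Its log2 fold change of -0.44 ± 0.22 (SE) was the lowest of all members, the groups overlapped through cKO 2, and adjusted p was 0.747 with edgeR's quasi-likelihood test. That value was -0.71 without cKO 2 and -0.23 without cKO 3. Fdft1, squalene synthase, ranged from 23.3 to 28.4 CPM in the controls and from 19.7 to 27.1 CPM in cKO. Sqle, the epoxidase often treated as a rate-limiting step after HMG-CoA reductase, stood at 27.2, 25.9 and 26.2 CPM against 35.2, 30.4 and 15.2 CPM. The 3 controls of Sqle lay within 1.05 times of each other, while cKO 1 was 2.31 times cKO 3, and the log2 fold change was 0.03 ± 0.27 (SE).

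Lanosterol synthase (Lss) closes the ring, and Cyp51 and Tm7sf2 begin to trim lanosterol. Lss stood at 14.5, 14.7 and 17.5 CPM in the controls and at 19.7, 19.6 and 13.8 CPM in the cKO libraries, again with cKO 3 lowest. Its log2 fold change was 0.19 ± 0.17 (SE) on counts and 0.70 on log2(TPM + 1), where TPM is the abundance per transcript length that RSEM gives. Cyp51, the lanosterol demethylase, stood at 49.5, 48.0 and 44.4 CPM against 62.5, 57.3 and 31.7 CPM. For Cyp51 the cKO libraries again lay on both sides of the controls, with a ratio of 1.97 from highest to lowest against 1.11 among controls. Tm7sf2, a sterol reductase, ranged from 7.21 to 8.64 CPM in the controls and from 5.42 to 7.65 CPM in cKO.

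Msmo1, Nsdhl and Hsd17b7 remove the remaining methyl groups at carbon 4 of the sterol ring. Msmo1 stood at 24.2, 21.1 and 21.1 CPM against 22.8, 26.9 and 14.8 CPM. Nsdhl ranged from 13.4 to 14.6 CPM in the controls and from 11.4 to 16.1 CPM in cKO, and Hsd17b7 from 6.80 to 10.3 and from 6.41 to 11.8 CPM. In all 3 genes cKO 3 was the lowest library and cKO 1 or cKO 2 the highest.

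The last steps move and reduce double bonds, and here 2 genes had cKO libraries that all lay below the controls. Ebp, the sterol isomerase, stood at 38.2, 38.8 and 39.4 CPM in the controls and at 34.5, 33.6 and 34.6 CPM in the cKO libraries. It varied least of the members among the cKO libraries, with 1.03 times between the highest and lowest library in each group, and a log2 fold change of -0.18 ± 0.09 (SE). On log2(TPM + 1) the same difference was -0.04. Dhcr7, the reductase that turns 7-dehydrocholesterol into cholesterol, stood at 31.5, 32.4 and 31.7 CPM against 20.9, 29.8 and 24.5 CPM. All of its cKO values were lower, with a log2 fold change of -0.35 ± 0.14 (SE) that was -0.23 without cKO 1. Unadjusted p was 0.0377 and adjusted p 0.747 for Dhcr7 with edgeR's quasi-likelihood test. Sc5d, the desaturase before it, ranged from 25.5 to 29.3 CPM in the controls and from 23.9 to 28.0 CPM in cKO.

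**Figure D2:**
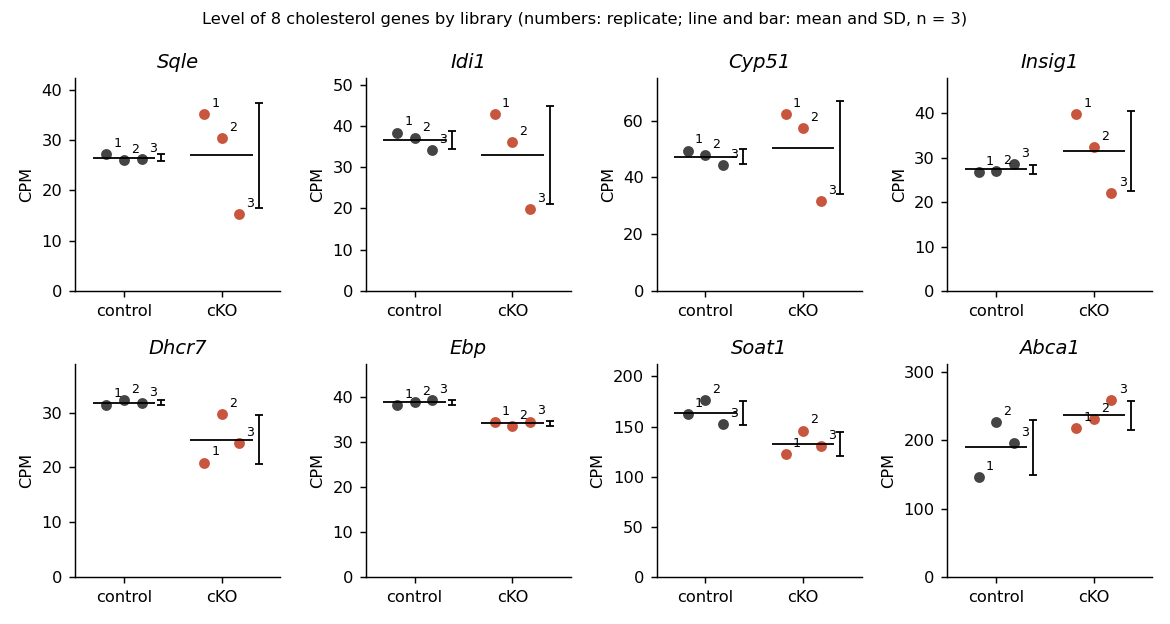
CPM of selected sterol genes, 1 panel per gene, with a point for each control and cKO library and bars for the group mean ± SD (n = 3). For Sqle the controls lie between 25.9 and 27.2 CPM and the cKO libraries between 15.2 and 35.2 CPM, whereas for Soat1 the cKO points all lie below the control points.

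Across the 18 synthesis genes, 0 were called by edgeR's quasi-likelihood test, 1 had an unadjusted p below 0.05, 6 had the higher mean and 12 the lower mean in cKO. Their median log2 fold change was -0.07, and without cKO 3 it was 0.07, with 11 higher and 7 lower. With cKO 3 kept, it was -0.16 without cKO 1 and -0.15 without control 3. Over the 3 other single omissions it also stayed below 0. The sign of the synthesis median therefore rested on 1 library.

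The promoters of 24 of the 31 members were found in the RefSeq promoter table, which holds 250 bases before and 50 bases after each start site on GRCm38.p6. Letters of known regulatory elements were searched on both strands. The sterol regulatory element (SRE, searched as TCACNCCAC) is the letter pattern that SREBP2 is known to bind, the NF-Y box (CCAAT) is read by NF-Y, a common partner of SREBP, and the E-box (CACGTG) is a palindrome read by several factors. Upstream sequences of 5 genes that were highest in cKO 1 or cKO 2 and lowest in cKO 3, and of the efflux gene Abca1, which was lowest in control 1, are shown over the 250 bases before the start site, 5′ to 3′ on the gene's strand. Capitals mark the letters of an SRE, NF-Y box or E-box match (an NF-Y box on the other strand reads ATTGG). Coordinates belong to the GRCm38.p6 table only, since the expression tables were made on GRCm39. They are chr13:119690101-119690350 (plus strand) for Hmgcs1, chr13:8885356-8885605 (plus strand) for Idi1, chr5:4104698-4104947 (minus strand) for Cyp51, chr8:64733579-64733828 (minus strand) for Msmo1, chr5:28071162-28071411 (plus strand) for Insig1 and chr4:53159896-53160145 (minus strand) for Abca1.
Hmgcs1: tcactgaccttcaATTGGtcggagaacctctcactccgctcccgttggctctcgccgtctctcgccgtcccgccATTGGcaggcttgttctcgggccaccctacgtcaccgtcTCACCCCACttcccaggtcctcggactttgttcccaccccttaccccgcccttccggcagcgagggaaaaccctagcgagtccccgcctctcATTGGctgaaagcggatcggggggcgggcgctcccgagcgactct
Idi1: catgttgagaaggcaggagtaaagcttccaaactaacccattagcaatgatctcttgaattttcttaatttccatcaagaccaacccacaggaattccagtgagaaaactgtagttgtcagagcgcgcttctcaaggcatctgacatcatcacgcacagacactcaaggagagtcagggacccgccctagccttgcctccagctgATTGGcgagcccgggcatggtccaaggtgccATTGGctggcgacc
Cyp51: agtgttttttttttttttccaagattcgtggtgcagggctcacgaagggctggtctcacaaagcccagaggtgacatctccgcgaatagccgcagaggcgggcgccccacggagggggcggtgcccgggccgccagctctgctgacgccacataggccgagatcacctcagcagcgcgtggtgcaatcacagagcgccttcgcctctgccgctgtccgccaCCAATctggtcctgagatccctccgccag
Msmo1: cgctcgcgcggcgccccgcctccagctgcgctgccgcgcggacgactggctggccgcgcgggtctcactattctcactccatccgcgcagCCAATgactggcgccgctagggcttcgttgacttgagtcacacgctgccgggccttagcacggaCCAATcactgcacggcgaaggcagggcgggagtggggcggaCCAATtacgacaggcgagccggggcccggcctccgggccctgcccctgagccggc
Insig1: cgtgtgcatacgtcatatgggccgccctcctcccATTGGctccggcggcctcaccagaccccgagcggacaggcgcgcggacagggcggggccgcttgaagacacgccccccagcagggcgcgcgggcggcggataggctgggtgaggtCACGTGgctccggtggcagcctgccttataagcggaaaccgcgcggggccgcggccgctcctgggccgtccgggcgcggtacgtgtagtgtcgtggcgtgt
Abca1: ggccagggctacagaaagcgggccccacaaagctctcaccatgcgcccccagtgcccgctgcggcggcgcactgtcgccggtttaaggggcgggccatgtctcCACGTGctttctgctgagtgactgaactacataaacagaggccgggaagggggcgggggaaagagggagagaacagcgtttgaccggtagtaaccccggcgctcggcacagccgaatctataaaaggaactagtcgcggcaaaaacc

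Of the 15 synthesis genes with a promoter in the table, 14 held an NF-Y box within the 300 bases (93.3%), beside 41.1% of 27025 genes, and the gene without it was Acat2. Over all 24 members the share was 79.2%. The SRE letters occurred in 1 member, Hmgcs1, at base -137, beside 1.44% of genes. E-box letters occurred in 6 of 24 members (25%), beside 8.09% of genes. The LXR element, searched as a direct repeat of AGGTCA with a spacer of 4 bases, occurred in 0 members and in 4 of 27025 genes. The bases after the table's start site lay in a GENCODE transcript of the gene for 24 of 31 member promoters, and not for that of Hmgcs1. A match describes letters in this window and is not a measured site, and the absence of a match says only that those exact letters were not in the window.

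**Figure D3:**
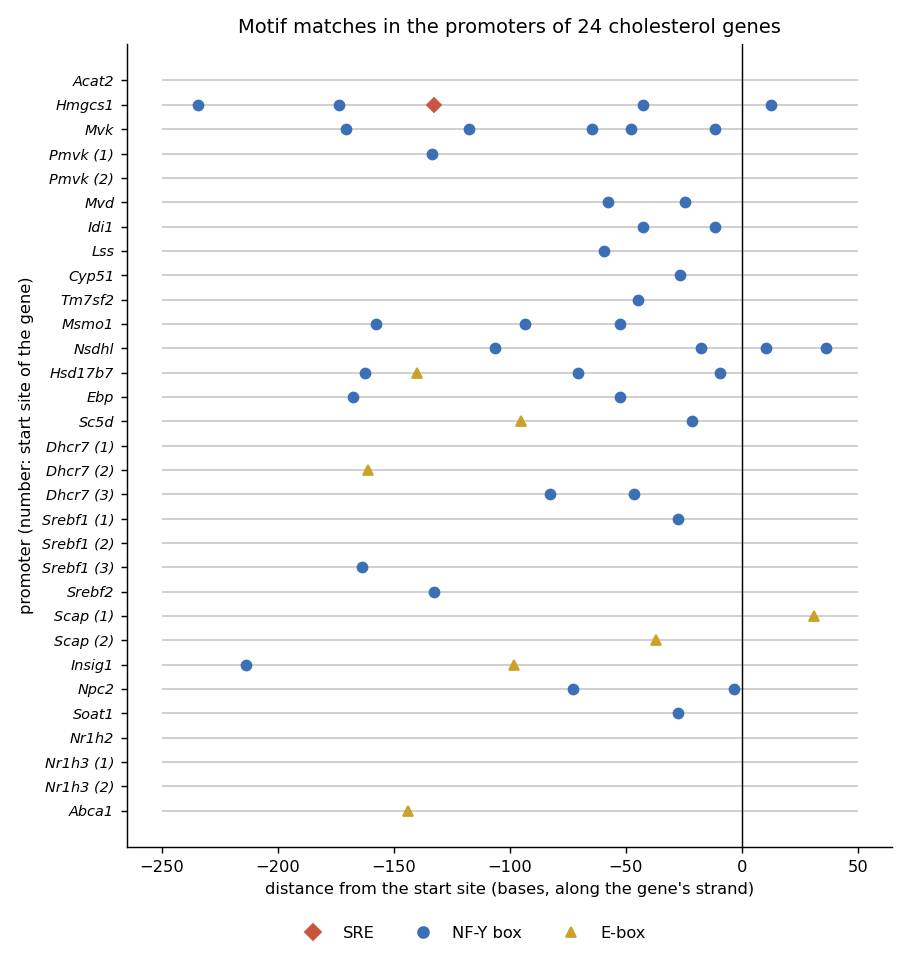
Positions of the letter matches (x axis, from 250 bases before to 50 bases after the start site) in the member promoters of the RefSeq table (rows), coloured by element. NF-Y boxes appear in 14 of 15 synthesis genes, and the SRE letters appear in Hmgcs1 alone among the members in the table.

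The regulators of the pathway, like 13 of the 18 synthesis genes, were lowest in cKO 3. Srebf2, which encodes SREBP2, stood at 91.6, 95.3 and 94.0 CPM in the controls and at 117, 103 and 75.3 CPM in the cKO libraries. Insig1, itself a known SREBP target, stood at 26.7, 26.9 and 28.5 CPM against 39.9, 32.4 and 22.0 CPM. For both genes the controls lay within 1.07 times of each other, cKO 1 and cKO 2 lay above every control and cKO 3 below every control. Srebf1, which encodes the SREBP1 proteins of fatty acid synthesis, ranged from 61.2 to 67.0 CPM in the controls and from 57.9 to 73.2 CPM in cKO. Scap ranged from 69.8 to 74.8 CPM and from 64.1 to 77.6 CPM. In each of the 4 regulators cKO 1 was the highest and cKO 3 the lowest of the 6 libraries.

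None of the 4 regulators had an unadjusted p below 0.05. Their log2 fold changes ran from 0.00 (Scap) to 0.20 ± 0.20 (SE, Insig1), with a median of 0.05. Without cKO 1 the median was -0.05, with all 4 below 0, and without cKO 3 it was 0.18, with all 4 above 0. With a trend on transcript length removed, 2 were above and 2 below 0.

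The spread was measured as the SD of log2 CPM within each group. It was larger over the cKO libraries than over the controls for 25 of 31 members (80.6%) and 16 of 18 synthesis genes (88.9%), beside 56.2% of all genes. The median SD of the synthesis genes was 0.10 in the controls and 0.28 in cKO, and that of the regulators 0.05 and 0.25. Over all genes tested the medians were 0.17 and 0.19. The ordering with the highest value in cKO 1 or cKO 2 and the lowest in cKO 3 held for 13 of 31 members, beside 7.62% of all genes. These were 8 synthesis genes (Hmgcs1, Idi1, Sqle, Lss, Cyp51, Msmo1, Nsdhl and Hsd17b7), the 4 regulators and the transport gene Stard4. Synthesis genes share a regulator, so they are not independent counts of a library's state.

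A mean over each list of log2 CPM, relative to the 6-library mean of each gene, gave 1 value per library. The synthesis value was 0.10, 0.06 and -0.00 in the controls and 0.05, 0.13 and -0.34 in the cKO libraries. The regulators gave -0.05, 0.00 and -0.04 against 0.26, 0.09 and -0.27. In both lists cKO 3 was the lowest library, and the synthesis value of cKO 3 was -0.33 with RLE size factors, -0.35 with the length trend removed and -0.24 on log2(TPM + 1). Fatty acid synthesis genes, the targets of SREBP1, gave -0.04, 0.06 and -0.01 against -0.04, 0.04 and -0.02, so that cKO 3 lay within the control range for that list.

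Marker values of the library cKO 3 were set beside these. Its epithelial, stromal and smooth muscle marker values, on the same relative log2 scale, were -0.16, 0.14 and 0.16, each between those of other libraries. The endothelial, macrophage and lymphocyte values of cKO 3, at -0.09, 0.27 and 0.20, also lay between those of other libraries. Adipocyte markers summed to 57.5 and 45.3 CPM in control 3 and cKO 3, against 11.5 to 22.9 CPM in the other 4 libraries. Adipoq, which did not pass the filter on low counts, stood at 0.132, 0.0988 and 4.01 CPM in the controls and at 0, 0.0460 and 2.53 CPM in the cKO libraries. Plin4, the list's marker of highest CPM, did not follow the sum and was highest in cKO 1. It stood at 8.6, 7.8 and 13.8 CPM in the controls and at 18.5, 13.7 and 15.9 CPM in the cKO libraries. Control 3, with the highest adipocyte sum, had a synthesis value of -0.00. Luteal and ovarian markers (led by Star) summed to 13.4 to 14.6 CPM in the controls and 15.5 to 18.5 CPM in cKO. Most of each sum was Star, at 10.8, 12.2 and 10.6 CPM against 12.7, 16.5 and 14.5 CPM. Inha, the only other marker of that list tested, gave a log2 fold change of -0.07 ± 0.33 (SE). On the relative log2 scale these 2 markers gave 0.34 in cKO 3, the highest library, against -0.14 to 0.06 elsewhere. Cyp11a1 and Lhcgr had 2 to 7 counts in a library and were not tested. Hsd3b1 and Fshr, of the same list, had 0 counts in all 6 libraries, which allows up to 0.132 to 0.149 CPM. The part of tissue composition in the low synthesis values of cKO 3 was not tested. In bulk tissue, fewer cells of a type and less RNA per cell cannot be told apart.

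Scarb1, Npc1, Npc2 and Stard4 carry sterol into and between compartments. Scarb1, the receptor for high-density lipoprotein, stood at 90.5, 117 and 158 CPM in the controls and at 77.5, 106 and 127 CPM in the cKO libraries. The groups overlapped widely, with a log2 fold change of -0.24 ± 0.23 (SE) that was -0.02 without control 3, -0.07 without cKO 1, -0.42 without control 1 and -0.41 without cKO 3. Npc1 and Npc2 hand cholesterol out of lysosomes. Npc1 ranged from 76.2 to 112 CPM in the controls and from 63.7 to 95.0 CPM in cKO, and Npc2 from 192 to 226 and from 188 to 226 CPM. Stard4, a cytosolic sterol carrier that SREBP2 is known to induce, stood at 47.2, 54.6 and 54.0 CPM against 54.9, 50.02 and 44.3 CPM. Stard4, like the 4 regulators, was highest in cKO 1 and lowest in cKO 3, while Scarb1 and Npc1 were highest in cKO 3 among the cKO libraries. Over these 4 genes 1 log2 fold change was above 0 and 3 were below, with a median of -0.11, which was -0.20 without control 1, -0.02 without control 2, -0.03 without control 3 and -0.05 without cKO 1.

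Soat1 encodes the enzyme that esterifies cholesterol for storage in lipid droplets, and it had the smallest unadjusted p of the members. It stood at 162, 177 and 153 CPM in the controls and at 122, 146 and 131 CPM in the cKO libraries. Every cKO library was below every control, and the group means, with SD over 3 libraries each, were 164 ± 12.1 and 133 ± 11.9 CPM. The log2 fold change was -0.30 ± 0.11 (SE), and edgeR's quasi-likelihood test gave an unadjusted p of 0.0228 and, after adjustment over all genes, an adjusted p of 0.747. On log2(TPM + 1) the difference was -0.11.

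Groups that did not overlap were thus found for 4 of 31 members, Acat2, Ebp, Dhcr7 and Soat1, all with lower cKO values. This was 12.9% of the members, beside 5.78% of all genes. No member had all 3 cKO libraries above the controls, a pattern found in 6.93% of all genes.

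Both efflux genes had higher means in cKO, and neither passed the test. Abca1, which loads cholesterol onto lipid-poor apolipoprotein, stood at 146, 226 and 196 CPM in the controls and at 218, 231 and 259 CPM in the cKO libraries. The cKO values overlapped the controls through control 2, and control 1 was the lowest library. Mean levels, with SD over 3 libraries each, were 189 ± 40.2 and 236 ± 20.9 CPM, and the log2 fold change 0.32 ± 0.16 (SE); edgeR's quasi-likelihood test gave an adjusted p of 0.747. Without control 1 that value was 0.16, and with the length trend removed 0.14. Abcg1, which passes cholesterol to mature lipoprotein particles, stood at 14.8, 21.0 and 24.5 CPM against 25.1, 19.5 and 23.4 CPM. Control 1 was again lowest, and the log2 fold change of 0.17 ± 0.19 (SE) was -0.01 without it.

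The receptors that drive efflux showed no difference beyond their spread. Nr1h2 ranged from 65.0 to 66.9 CPM in the controls and from 60.0 to 70.4 CPM in cKO. Nr1h3 stood at 10.7, 11.3 and 13.7 CPM against 9.17, 9.66 and 14.2 CPM, and its highest library was cKO 3. The log2 fold changes were -0.02 ± 0.09 (SE) and -0.11 ± 0.20 (SE).

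**Figure D4:**
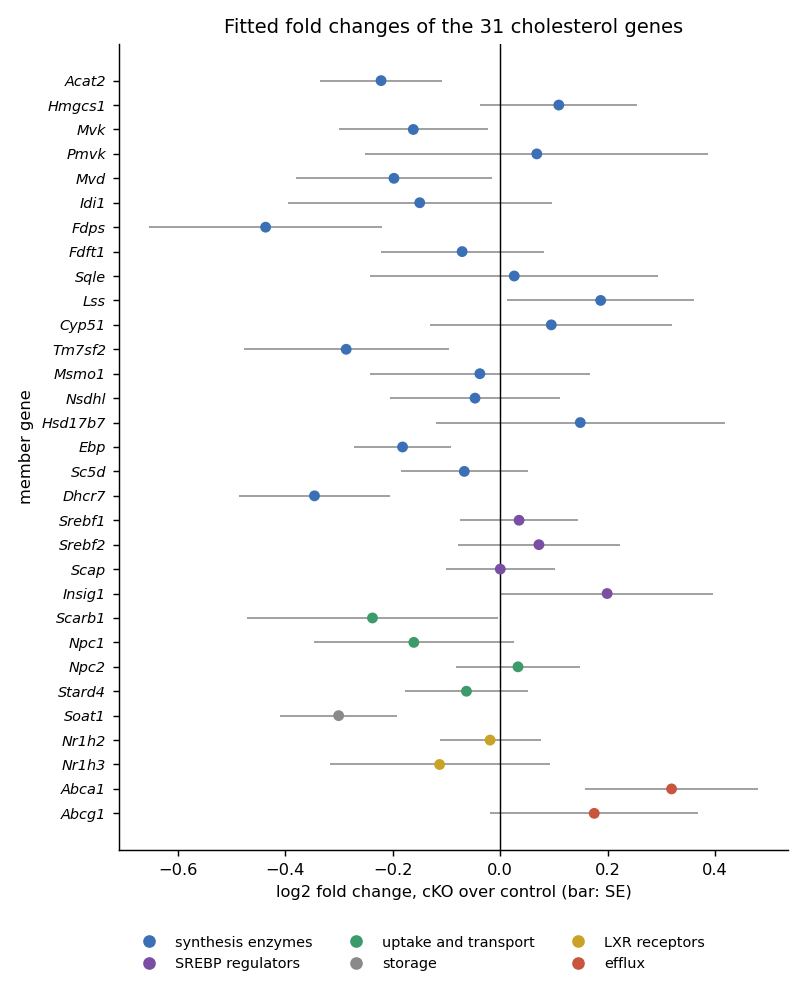
Log2 fold change of cKO over control (x axis) for each of the 31 members (rows, grouped by role), with bars of ± 1 SE from edgeR's quasi-likelihood fit. Values run from -0.44 (Fdps) to 0.32 (Abca1), and no adjusted p is below 0.747.

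Synthesis was set against efflux by subtracting the efflux value of each library from its synthesis value. The efflux list (Abca1 and Abcg1) gave -0.51, 0.05 and 0.06 in the controls and 0.16, 0.01 and 0.23 in the cKO libraries. The difference was 0.61, 0.01 and -0.06 against -0.10, 0.12 and -0.57. The group means were 0.19 ± 0.37 and -0.19 ± 0.35 (SD, n = 3 each), so cKO was lower by a log2 difference of -0.37, about the size of 1 SD in each group. The groups overlapped, with cKO 2 above control 2 and control 3. Most of the distance came from control 1 at the high end and cKO 3 at the low end, and the difference was -0.16 without control 1 and -0.18 without cKO 3. Control 1 also had the lowest stromal marker value, at -0.39 on the relative log2 scale against -0.15 to 0.26 elsewhere, and macrophage markers were higher in cKO for 8 of 8 genes, summing to 244 to 316 CPM in the controls and 290 to 626 CPM in cKO. The part of these cells in the efflux values was not tested.

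**Figure D5:**
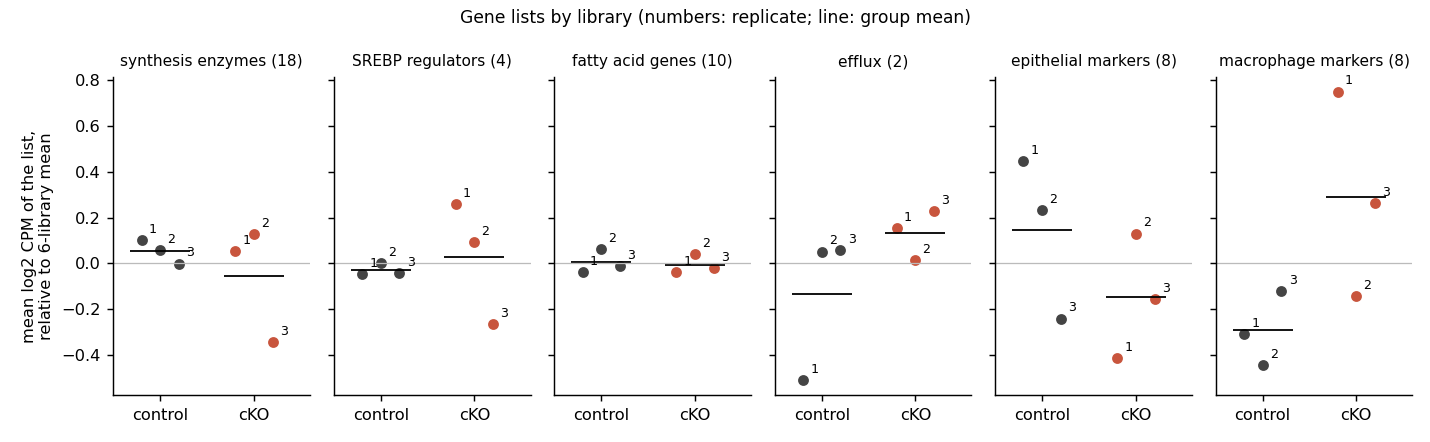
Mean log2 CPM of each list relative to the 6-library mean (y axis) in each of the 3 control and 3 cKO libraries (x axis), a point per library. Synthesis and regulators are lowest in cKO 3 (-0.34 and -0.27), and efflux is lowest in control 1 (-0.51).

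Levels were compared between genes per transcript length, in TPM averaged over the 6 libraries. Npc2 was highest at 95.2 ± 8.90 TPM (SD, n = 6), followed by Pmvk at 70.5 ± 20.2, Scarb1 at 64.2 ± 16.6, Soat1 at 55.8 ± 4.45 and Nr1h2 at 55.3 ± 4.28 TPM. Pmvk and Scarb1, and Soat1 and Nr1h2, were neighbours within their spread. Among the synthesis genes Ebp followed at 35.2 ± 2.7, Fdps at 32.7 ± 7.74 and Hmgcs1 at 27.1 ± 4.16 TPM, and the lowest was Hsd17b7 at 3.51 ± 0.980 TPM. Srebf1 and Srebf2 were level at 30.1 ± 3.36 and 29.4 ± 4.85 TPM. Abca1 at 28.4 ± 6.46 TPM exceeded Abcg1 at 6.54 ± 1.53 TPM, and Nr1h2 exceeded Nr1h3 at 9.35 ± 1.56 TPM.

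A further 39 genes of the pathway were measured, and 0 of them were called by edgeR's quasi-likelihood test. At an unadjusted p below 0.05 there were 3 with the higher and 2 with the lower mean in cKO. These were 12.8% of the 39 genes, beside 6.46% of all genes. In all, 22 log2 fold changes were above and 17 below 0 (median 0.04). All 3 cKO libraries lay above all 3 controls in 3 of these genes (7.69%), beside 6.93% of all genes. They lay below all 3 controls in 2 genes (5.13%), beside 5.78% of all genes. The further pathway genes described from here on were picked for their small p. Lrp1, an endocytic receptor for many ligands, stood at 284, 337 and 316 CPM in the controls and at 538, 374 and 418 CPM in the cKO libraries. Vldlr, a receptor for triglyceride-rich lipoprotein, stood at 137, 132 and 123 CPM against 205, 168 and 154 CPM. All cKO libraries of both genes exceeded all controls, with log2 fold changes of 0.51 ± 0.15 (SE) and 0.43 ± 0.12 (SE) and unadjusted p of 0.0086 and 0.00837, while edgeR's quasi-likelihood test gave 0.747 for each after adjustment. The stromal marker sum was also higher in every cKO library than in any control, and the macrophage sum was highest in cKO 1 (626 CPM) and within the control range in cKO 2 (290 CPM). Their part in these values was not tested. On log2(TPM + 1) the Lrp1 difference was 0.28.

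Of the other genes of synthesis and its control, Erg28, a scaffold of the demethylating enzymes, stood at 36.9, 32.8 and 33.5 CPM against 29.3, 30.4 and 26.0 CPM. Its cKO libraries all lay below the controls, with a log2 fold change of -0.27 ± 0.11 (SE). Lbr, a sterol reductase of the nuclear envelope, and Mbtps1, the protease that cleaves SREBP, each gave a log2 fold change of 0.10, with SE of 0.10 and 0.11. Gramd1a, which moves sterol from the plasma membrane, gave -0.29 ± 0.15 (SE), with a range from -0.43 to -0.16 when a library was left out.

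The other LXR targets did not share a direction. Mylip, which degrades lipoprotein receptors, gave a log2 fold change of 0.19 ± 0.15 (SE), which ranged from 0.08 to 0.31 with a library left out, while Lpcat3, a phospholipid acyltransferase, gave -0.21 ± 0.10 (SE) and Smpdl3a, a phosphodiesterase, -0.20 ± 0.13 (SE), ranging from -0.34 to -0.12. The list of 7 also held Rxra (0.07) and Rxrb (-0.01), which encode partners of LXR rather than targets. In all, 4 of the 7 were above and 3 below 0. Of 10 fatty acid genes 5 were above and 5 below 0. Scd1, the stearoyl-CoA desaturase, stood at 46.1, 50.3 and 46.9 CPM against 58.2, 54.2 and 59.4 CPM, and every cKO library exceeded every control. Fads2, the delta-6 desaturase, stood at 141, 126 and 137 CPM against 97.0, 123 and 103 CPM, with every cKO library below. Their log2 fold changes were 0.26 ± 0.09 (SE) and -0.32 ± 0.12 (SE), and that of Acss2, which makes acetyl-CoA, was -0.26 ± 0.17 (SE), ranging from -0.39 to -0.14 with a library left out.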

How the data were processed

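Poly(A) RNA of 6 uterine libraries was sequenced, 3 labelled control and 3 labelled Zip10 cKO. Per the submitters' processing notes reads were handled on GRCm39 with RSEM 1.3.3, STAR 2.7.10a and fastp 0.23.2, and edgeR 3.38.4 is listed under R 4.2.1. Annotation release and strandedness: not given in the sources used here. Deposited tables, 1 per library, hold RSEM expected counts per gene and, per the file headers, TPM with the effective length. RSEM splits reads that match several genes: 8 members (Acat2, Hmgcs1, Idi1, Fdps, Fdft1, Tm7sf2, Scap and Npc1) had fractional counts, so their levels are less certain.

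Gene IDs were given symbols from GENCODE M21 and 52073 of 56748 matched. Expected counts were rounded, filtered with filterByExpr (minimum count 10, minimum total 15) to 16737 genes, scaled by TMM and fitted with edgeR 4.0.16 (robust quasi-likelihood, limma 3.58.1, R 4.3.3) on all 6 libraries, with the Benjamini-Hochberg threshold at 0.05. An SE was derived from the fold change and its F statistic. Log2 CPM used a prior count of 3. The members and gene lists were chosen with earlier results of these data known, and markers and pathway genes came from textbook lists. Named genes were Slc39a10, all members, up to 3 genes of each further pathway list by smallest p, and the marker of highest CPM in each marker list. Some further markers were named beside these. Alternatives were DESeq2 1.42.0, limma-voom, the likelihood ratio test, RLE and upper-quartile scaling, no filter or 1 CPM in 3 libraries, log2(TPM + 1) and log2(TPM + 0.1), a loess trend on length removed (span 0.5), a replicate block and each library left out. Exact permutation tests used scipy 1.17.1, and figures matplotlib 3.10.9. Tested on simulated data for this comparison (16737 genes), the main test called 36% of genes changed 1.5-fold, 80% at 2-fold and 96% at 4-fold. The changed genes, 50 per fold, had a mean count of at least 50, and 17 of 16537 unchanged genes were called. Genes were simulated independently, without an outlying library or a shift in cell composition. No change below 1.5-fold was simulated. No libraries were duplicates (chi-square per degree of freedom at least 14.3 between any pair).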

Additional observations from a re-analysis of the deposited data

How the results depend on the processing

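The number of sterol genes called was 0 under every alternative run. The number of genes called in the whole table was 37 with DESeq2, 30 with the likelihood ratio test, 15 with no filter on low counts and 0 to 2 with a library left out (2 without cKO 1). The difference of synthesis minus efflux, -0.37 in the main setting, ran from -0.52 to -0.16 with a library left out. With Nr1h2 and Nr1h3 added it was -0.20. Every alternative lay within 1 SD of -0.37, but that SD was about as large as the difference, so this does not show a stable value. Whether replicate numbers pair the libraries was not settled. Deviations of same-numbered libraries correlated at 0.09 to 0.25, and those of differently numbered control and cKO libraries at -0.33 to 0.12. Among the controls cKO 1 correlated at 0.12 with control 3 and at 0.09 with control 1. With a replicate block 0 genes and 0 members were called (5 of 31 members, 16.1%, at an unadjusted p below 0.05, beside 8.09% of all genes). The synthesis minus efflux difference of -0.37 cannot change with this block, because the mean of paired differences equals the difference of group means.

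Of 341 member fold changes under other settings 27, in 10 genes, had the opposite sign, and the cause was not tested. Of these, 11 were still of opposite sign when both values were rounded to 2 decimals. On log2(TPM + 1) the 11 included Fdft1 (0.013), Nsdhl (0.009) and Nr1h2 (0.052), and on log2(TPM + 0.1) Fdft1 (0.014), Nsdhl (0.008), Nr1h2 (0.053) and Sqle (-0.009). Sqle was at -0.055 with limma-voom and -0.049 with the replicate block, and with the length trend removed Srebf2 was at -0.014 and Nr1h2 at 0.011. The other 16 included Stard4 (0.004), Nr1h3 (0.002) and Sqle (-0.002) on log2(TPM + 1), and values of Sc5d, Npc2 and Scap, the last at 0.00 to begin with. Under the other settings 25 of 31 members and 6 of 12 named pathway genes moved by over 1.5 times. With a library left out 29 of 186 member values, in 19 genes, had the opposite sign, and 27 of 31 members and 6 of 12 named pathway genes moved by over 1.5 times. The ranges were -0.23 to 0.46 for Pmvk, -0.39 to 0.11 for Idi1, -0.16 to 0.062 for Fdft1, -0.21 to 0.31 for Sqle, -0.088 to 0.34 for Cyp51, -0.24 to 0.17 for Msmo1, -0.18 to 0.068 for Nsdhl, -0.14 to 0.003 for Sc5d, -0.062 to 0.074 for Scap, -0.34 to 0.001 for Nr1h3, -0.031 to 0.39 for Hsd17b7, -0.042 to 0.12 for Srebf1, -0.069 to 0.23 for Srebf2, -0.010 to 0.40 for Insig1, -0.31 to 0.031 for Npc1, -0.023 to 0.11 for Npc2, -0.14 to 0.013 for Stard4, -0.076 to 0.033 for Nr1h2 and -0.013 to 0.33 for Abcg1. The named pathway genes kept their sign under all alternatives run. Depth limits the precision of low members such as Tm7sf2 (114 counts in cKO 1).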

Other observations

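The counts and the length-scaled values gave different fold changes for several synthesis genes, and 2 of them, Lss and Hsd17b7, are given here. Lss stood at 3.50, 4.04 and 8.32 TPM in the controls and at 9.18, 9.52 and 7.54 TPM in the cKO libraries, although its CPM differed little. Its effective length, which RSEM estimates from the mix of isoforms, was 4920, 4731 and 2689 bases in the controls and 2910, 2618 and 2416 bases in the cKO libraries. Control 1 and control 2 thus had long estimates, and the other 4 libraries short ones. Hsd17b7 stood at 2.97, 3.16 and 2.5 TPM against 5.0, 4.44 and 2.98 TPM, with a log2 fold change of 0.39 on log2(TPM + 1) and 0.15 on counts. Whether isoform use differed was not tested, since the gene tables used here give no isoform counts.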
